A study of Drosophila melanogaster with 4 samples.

Results

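U is the unplaced sequence of the Drosophila melanogaster genome in FlyBase release 5, the sequence on which pieces of assembly that belong to no mapped chromosome position were joined end to end, and this account describes the regions of it that were called enriched for the protein POF. The members are the enriched clusters that the combined list of the replicate set places on U, which number 356 of 20574 clusters on all sequences. The single region called depleted lay elsewhere and was left out. The lists of the 2 ChIP libraries served as repeats, with 89 of 6433 clusters on U in replicate 1 and 38 of 5786 in replicate 2. The choice of members used position alone, so lengths, scores and replicate overlap were not part of it.

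POF ChIP libraries (2 samples) and input libraries (2 samples) were made from wild-type Oregon-R larvae in the 3rd instar. The ChIP used an affinity-purified rabbit polyclonal antibody against the first part of POF on chromatin of homogenized, formaldehyde-treated animals, so that all tissues of the larva and, since no label gives a sex, possibly both sexes contribute to each value. The groups follow the titles, because 2 descriptions contradict them: ChIP replicate 2 is described merely as input, and input replicate 1 is described with the antibody. On chromosome 4, the known target of POF, the library labelled ChIP replicate 1 had 3.92% of bases covered, below the 8.96% of all arms, and the library labelled ChIP replicate 2 had 27.9%, above the 10.7% of all arms. Replicate 1 thus does not show the coating of chromosome 4 that its label would lead one to look for. The combined list covered 31.3% of chromosome 4, close to the 31.0% of all arms, so its coverage does not set chromosome 4 apart. The term POF clusters below therefore means regions called enriched in libraries labelled POF ChIP, and binding of POF at them was not tested. Values are given for each replicate below. Separate cultures are not stated for the replicates, and their spread may thus be technical only.

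POF, named for painting the fourth chromosome, binds RNA and decorates the whole of chromosome 4 in the fly, where its binding depends on and overlaps that of the heterochromatin protein HP1. Heterochromatin is the compact, repeat-rich chromatin around the centromeres and on the Y chromosome. The unplaced sequence and the sequences named 2LHet, 2RHet, 3LHet, 3RHet, XHet and YHet hold assembled parts of such DNA, and reads from repeats often match many places at once. Positions on U give the order in which the pieces were joined and have no map meaning. No gene is named, because no annotation of U in this release was used here.

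POF clusters were sparse on U. In the combined list they covered 528218 bp, or 5.26% of its 10049037 bp, against 11.4% of the 6 heterochromatin sequences and 31.0% of the 6 chromosome arms, which are X, 4, 2L, 2R, 3L and 3R. That coverage of U was 0.463 times that of heterochromatin and 0.170 times that of the arms. U made up 7.19% of the sequence of these 13 and held 1.73% of the clusters. Its density was 35.4 clusters per Mb, against 66.0 per Mb on heterochromatin and 162.9 per Mb on the arms. Uextra, a further unplaced sequence of 29004656 bp named in the file headers, held 0 clusters in any of the 3 lists.

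Each replicate list showed the same order. In replicate 1, clusters covered 1.47% of U, 4.47% of heterochromatin and 8.96% of the arms. Replicate 2 had 0.733% of U covered, 1.70% of heterochromatin and 10.7% of the arms. U averaged 1.10% ± 0.524, heterochromatin 3.08% ± 1.95 and the arms 9.84% ± 1.24 (SD, n = 2 each). The difference of U minus the arms was -8.74 ± 1.77 percentage points, larger than the spread between replicates, and that of U minus heterochromatin was -1.98 ± 1.43 points. U was lower in 2 of 2 replicates in both comparisons, and an exact two-sided sign-flip permutation test gives p = 0.5 for each, the smallest that 2 replicates allow.

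**Figure D1:**
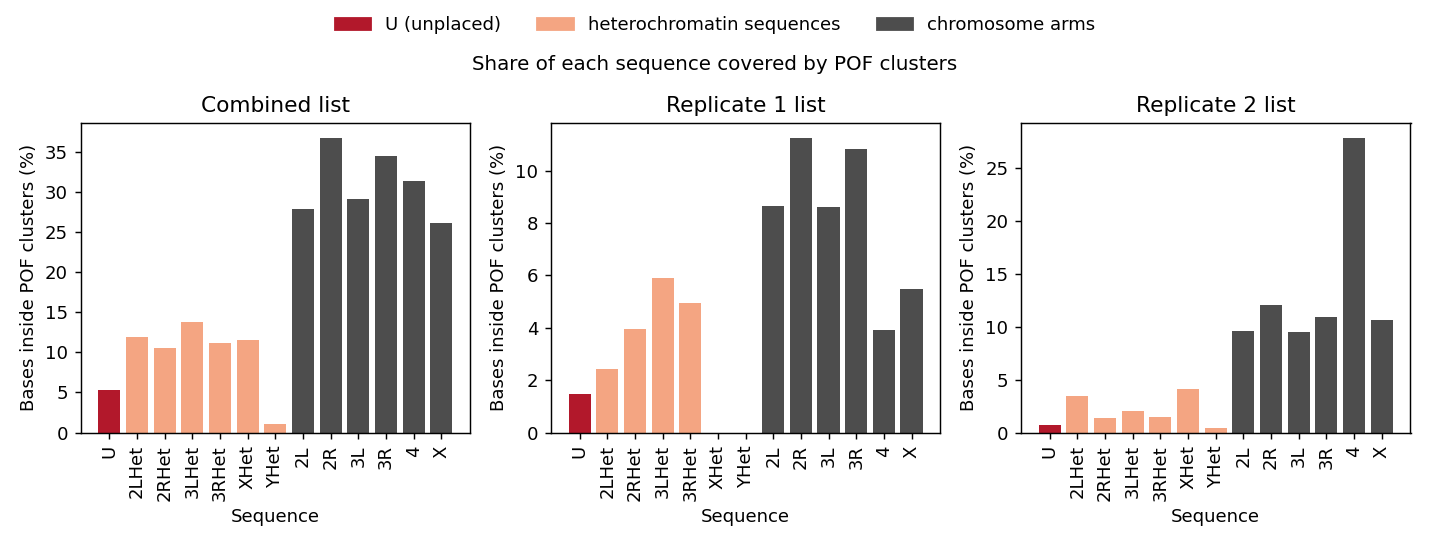
Percent of bases inside POF clusters (vertical axis, a separate scale for each panel) on U, the 6 heterochromatin sequences and the 6 arms, for the combined list, replicate 1 and replicate 2. Bars are single values per list; U stands at 5.26%, 1.47% and 0.733% in that order, below the arms in every panel, while YHet in all 3 lists and XHet in replicate 1 lie lower still.

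Among the single heterochromatin sequences, YHet was less covered than U in every list. Its share was 1.08% in the combined list, whereas replicate 1 had 0% and replicate 2 had 0.448%. The other 5 were covered to between 10.6% and 13.8% in the combined list, above U. XHet, at 11.6% in the combined list, had no cluster in replicate 1 and 4.09% of its bases covered in replicate 2. YHet held 3 combined clusters and XHet 14, so their shares rest on few regions.

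Clusters were found along nearly all of U, but unevenly. Over the 10 full windows of 1 Mb, the share covered by the combined list ran from 2.54% to 7.89% (median 5.50%). The second megabase was the most covered, with 51 clusters, and the ninth the least, with 17. Replicate 1 also had its highest share in the second megabase, 3.03%, with 18 clusters, and its lowest in the fifth, 0.306%, with 2 clusters. In replicate 2 the highest share, 1.59%, fell in the fourth megabase with 7 clusters, and the lowest, 0.175%, in the sixth with 1 cluster.

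Windows of U lay below nearly every window of the arms. All 10 lay under the lowest of the 118 full arm windows in the combined list, which was 13.1%, and in replicate 2, where it was 2.89%. In replicate 1 the lowest arm window was 2.84%, and 9 of 10 windows of U lay under it, the second megabase being the exception. Against the 7 full heterochromatin windows, 9 of 10 windows of U lay under the lowest in the combined list (6.92%), 8 of 10 in replicate 1 (2.15%) and 4 of 10 in replicate 2 (0.347%).

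The spacing shows the same sparseness. Neighbouring clusters on U were separated by a median of 15189 bp in the combined list, against 5755 bp on heterochromatin and 2214 bp on the arms. Gaps of at most 1000 bp made up 7.61% of the gaps on U, 17.0% of those on heterochromatin and 29.8% of those on the arms. The longest stretch of U without a combined cluster ran from 8354216 to 8583392 (229177 bp). In replicate 1 it ran from 8148169 to 8900596 (752428 bp) and in replicate 2 from 7545911 to 8777180 (1231270 bp), so that all 3 empty stretches share positions in the ninth megabase. The first and last clusters of the combined list began at 42821 and ended at 9965364. Those of replicate 1 lay at 42637 and 9850964, and those of replicate 2 at 864650 and 9806201.

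The clusters on U were short. Their median length in the combined list was 1304.5 bp, against 1467 bp on heterochromatin and 1529 bp on the arms. The shortest length in that list was 1001 bp. On U, 47 clusters (13.2%) had exactly this length, against 6.04% of heterochromatin clusters and 1.75% of arm clusters, with 2.08% over the whole list. In the replicate lists, whose shortest clusters measured 1301 bp, the medians stood closer together. Replicate 1 gave 1542 bp on U, 1674.5 bp on heterochromatin and 1598 bp on the arms. Replicate 2 gave 1807.5 bp on U, 1844 bp on heterochromatin and 1987 bp on the arms. The mean difference of U minus the arms was -118 ± 87.3 bp (SD, n = 2; exact sign-flip permutation p = 0.5).

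The longest clusters of U were of modest size. The first by length, at 3478222 to 3483697, measured 5476 bp (score 0.99), against a maximum of 7229 bp on heterochromatin and 20470 bp on the arms. It was touched by both replicate lists. The second, at 7542102 to 7545886, measured 3785 bp (score 1.27) and was also touched by both. The next were 1971403 to 1974876 (3474 bp, score 0.52), touched by replicate 1 only, and 9182464 to 9185859 (3396 bp, score 1.19), touched by replicate 2 only. The fifth, 1396266 to 1399611 (3346 bp, score 0.65), was again touched by both.

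Scores on U were high although the clusters were few and short. The authors gave every cluster a score, which is read here as a log2 enrichment of unstated reference and compared within a list only. The combined list had a median of 0.98 on U, 0.57 on heterochromatin and 0.43 on the arms. The quartiles on U were 0.60 and 1.68, against 0.46 and 0.77 on heterochromatin and 0.39 and 0.48 on the arms. The lower quartile of U thus lay above the upper quartile of the arms. The 90th percentile was 2.49 on U, 1.31 on heterochromatin and 0.56 on the arms. Low coverage with high scores was not limited to U, since YHet had a higher median, 1.24, over only 3 clusters. The other heterochromatin sequences had medians from 0.53 on 3LHet to 0.69 on XHet.

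The replicate lists gave the same order of medians. Replicate 1 had 0.95 on U, 0.76 on heterochromatin and 0.63 on the arms. Replicate 2 had 1.08 on U, 0.70 on heterochromatin and 0.62 on the arms. U exceeded the arms by 0.39 ± 0.10 and heterochromatin by 0.28 ± 0.13 on the log2 scale (SD, n = 2), both larger than the spread between replicates and seen in 2 of 2 replicates (exact sign-flip permutation p = 0.5 for each).

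**Figure D2:**
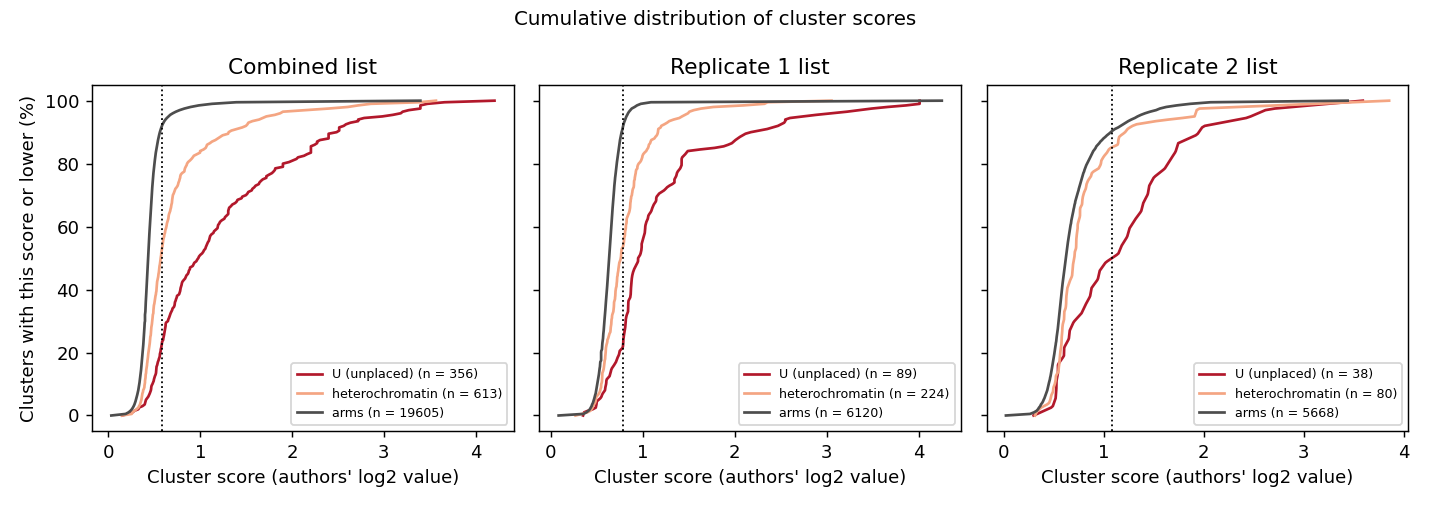
Cumulative percent of clusters (vertical axis) against the authors' log2 score (horizontal axis) for U, heterochromatin and the arms in each list. The dotted line marks the 90th percentile of the whole list, and the curve of U runs to the right of both others over most of its course, with medians of 0.98, 0.95 and 1.08.

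Clusters in the top 10% of scores were common on U. A score at or above the 90th percentile of the whole list, held by 10.0% of all clusters by construction, was found in 271 of the 356 clusters on U (76.1%), in 46.5% of heterochromatin clusters and in 7.66% of arm clusters. Single heterochromatin sequences ran from 37.9% on 3LHet to 60% on 3RHet, apart from YHet, where all 3 clusters had such a score. In replicate 1 the shares were 75.3% on U, 46.0% on heterochromatin and 7.75% on the arms, beside 10.0% of the whole list. In replicate 2 they were 50% on U, 15% on heterochromatin and 9.67% on the arms, again beside 10.0%. At the head of the lists the replicates differed in degree. Of the 100 highest scores in each list, 60 combined, 32 replicate 1 and 6 replicate 2 clusters lay on U. These stand beside a share of U in the whole list of 1.73%, 1.38% and 0.657%, and were above it in each.

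The highest score on U was also the highest of the combined list. It belonged to the cluster at 5236048 to 5238048 (2001 bp, score 4.21), which replicate 1 touched with a cluster of score 3.55 and replicate 2 did not touch. The second, at 8897975 to 8899752 (1778 bp, score 3.98), was touched by neither replicate. The third, at 864305 to 866457 (2153 bp, score 3.57), was touched by replicate 2 only, where the matching cluster at 864650 to 866206 was the highest on U (score 3.59). The fourth, at 8833097 to 8834427 (1331 bp), had the score 3.57 and was in neither replicate list.

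From the fifth place on, the leading scores were tied. Exactly 7 clusters of U scored 3.40, of which 6 measured 1001 bp and 1 measured 1002 bp. The first 6 of them by position began at 935132, 1601711, 3033855, 3111634, 6838410 and 9407290, and none of these 6 was touched by a replicate list. Of the 10 highest scores on U, 8 were thus in neither replicate list, beside 257 of all 356 clusters on U (72.2%).

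Scores at simple ratios to the list's most frequent score took a larger share on U than elsewhere. The most frequent score of the combined list was 0.40. On U, 18 clusters (5.06%) lay 1 or more whole log2 steps above it, within 1e-09, against 1.31% of heterochromatin clusters and 0.0816% of arm clusters. Such a step needs a score of at least 1.40. That was the 68 percentile on U, close to the 91 percentile on heterochromatin, and above the 99.5 percentile on the arms (1.39). The whole-step shares thus also reflect how many clusters score that high, and they were not compared at like scores. Scores that differed from 0.40 by the log2 of a ratio of whole numbers up to 10 made up 19.4% of those on U, 7.83% on heterochromatin and 3.10% on the arms, beside 3.52% of the whole list. Scores shared with another cluster of the same class, of whatever value, were held by 123 of 356 clusters on U, 100 of 613 on heterochromatin and 12987 of 19605 on the arms, a count that grows with the number of clusters. On U the share at simple ratios was 36.2% among clusters of up to 1100 bp and 2.27% among those over 2000 bp. The lists hold no read counts, and the number of reads behind a score was not analysed here.

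In the combined list, longer clusters of U had lower median scores. Clusters of U at the minimum of 1001 bp had a median of 1.90 (n = 47), and those of 1002 to 1100 bp one of 1.46 (n = 69). The medians were 0.83 from 1101 to 1500 bp (n = 106), 0.74 from 1501 to 2000 bp (n = 90) and 0.69 over 2000 bp (n = 44). The share in the top 10% of the list did not fall throughout, being 70.8%, 58.9% and 77.3% in these classes, beside 10.0% of the whole list. On heterochromatin the shortest class had a median of 1.30 (n = 37), and the longest one of 0.56 (n = 141). On the arms these were 0.46 (n = 344) and 0.47 (n = 5447). The replicate lists, which hold no cluster of up to 1100 bp, did not show this decline on U. In replicate 1 the medians were 0.87 from 1101 to 1500 bp (n = 34), 1.02 from 1501 to 2000 bp (n = 45) and 0.95 over 2000 bp (n = 10). In replicate 2 they were 0.84 (n = 10), 0.96 (n = 17) and 1.37 (n = 11) in the same classes, higher in the longer ones.

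Within every length class of the combined list the median on U stood above those on heterochromatin and the arms. For 1101 to 1500 bp it was 0.83 on U, 0.54 on heterochromatin and 0.40 on the arms, and for 1501 to 2000 bp it was 0.74 on U, 0.51 on heterochromatin and 0.40 on the arms. Over 2000 bp, 77.3% of the clusters on U were in the top 10% of the list, against 45.4% on heterochromatin and 19.7% on the arms. In the replicate lists, clusters over 2000 bp had a median of 0.95 on U (n = 10), 0.81 on heterochromatin (n = 57) and 0.70 on the arms (n = 1313) in replicate 1, and of 1.37 on U (n = 11), 0.76 on heterochromatin (n = 29) and 0.77 on the arms (n = 2778) in replicate 2. The counts on U are small in both.

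**Figure D3:**
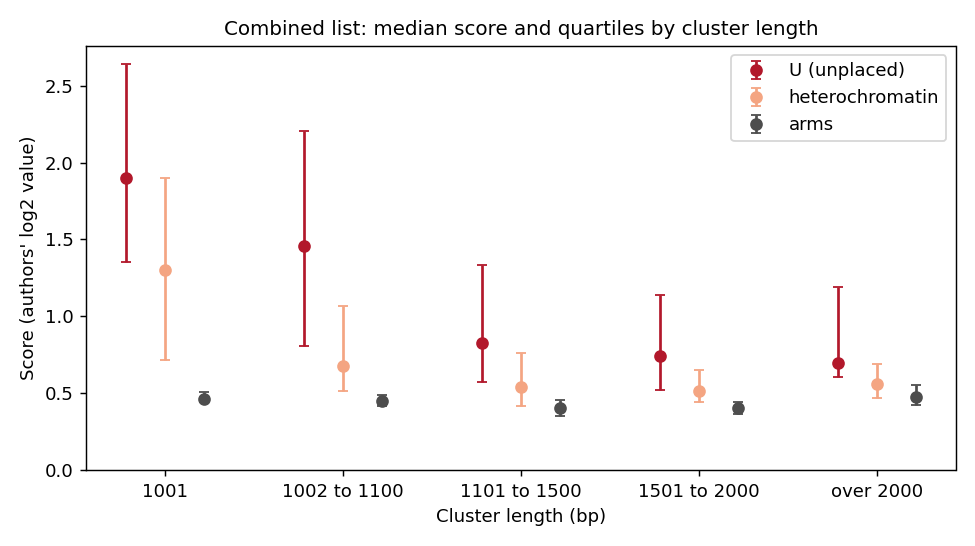
Median score (points) with quartiles (bars) of combined clusters in 5 classes of length, for U, heterochromatin and the arms; the vertical axis is the authors' log2 score. U declines from 1.90 at 1001 bp to 0.69 over 2000 bp and stays above the arms, which run between 0.40 and 0.47.

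Few clusters of U were found again. Of the 356 combined clusters, 11 (3.09%) shared at least 1 bp with both replicate lists, against 5.87% on heterochromatin and 8.57% on the arms, with 8.40% of the whole list. Replicate 1 alone touched 62 (17.4%) on U, and replicate 2 alone 26 (7.30%). Neither list touched 257 (72.2%, exact 95% Clopper-Pearson interval 67.2% to 76.8%), against 59.4% on heterochromatin and 51.0% on the arms, beside 51.6% of the whole list. The interval covers counting error only and takes clusters as independent. A replicate list touches fewer clusters by placement alone where it covers less, and replicate 2 covered 0.733% of U against 10.7% of the arms, so the share of U in both lists was not tested against placement. The share in neither list also varied with length. Among clusters of up to 1100 bp it was 94.8% on U, 93.3% on heterochromatin and 89.5% on the arms. From 1501 to 2000 bp it was 51.1%, 50.7% and 41.2% in that order. Clusters of up to 1100 bp, which no replicate list holds, made up 32.6% on U, 22.0% on heterochromatin and 15.4% on the arms. The part of length in these shares was not tested.

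On U the clusters found in neither replicate had the highest median score of the 4 groups, and on the arms those found in both did. On heterochromatin the clusters in neither list also had the highest median, 0.60. The other groups there stood in another order than on U, with 0.54 for replicate 1 only, 0.51 for both and 0.48 for replicate 2 only. The median on U was 1.10 for clusters in neither list, at a median length of 1189 bp, whereas those touched by both had a median of 0.80 at 2767 bp. On the arms the medians were 0.43 for clusters in neither list and 0.53 for those in both. Clusters touched by replicate 1 only had a median of 0.61 on U and 0.43 on the arms, and those touched by replicate 2 only had 0.77 on U and 0.42 on the arms. The median of U was above that of the arms in each of the 4 groups. Restricted to clusters touched by at least 1 replicate, a selection made after the data were seen, coverage was 1.93% on U, 6.04% on heterochromatin and 19.5% on the arms, and median scores were 0.69 on U, 0.52 on heterochromatin and 0.44 on the arms.

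**Figure D4:**
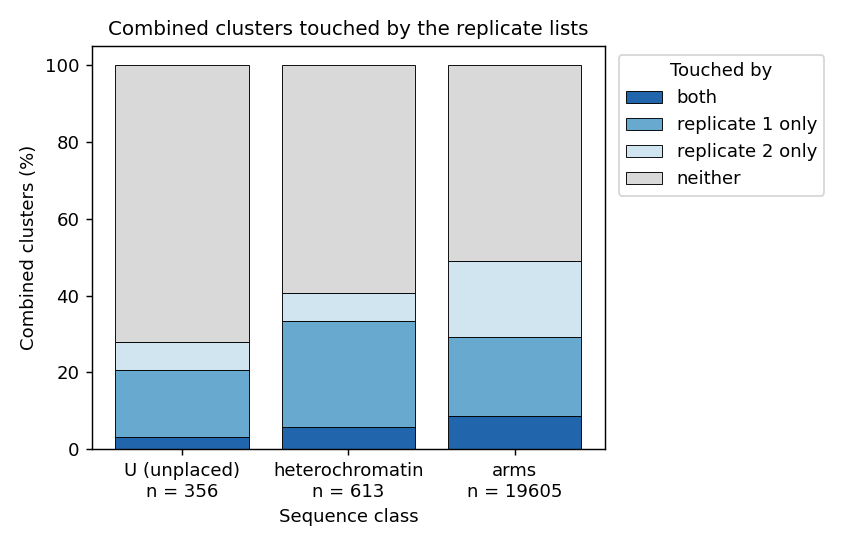
Percent of combined clusters (vertical axis) touched by both replicate lists, by 1 of them or by neither, for U (n = 356), heterochromatin (n = 613) and the arms (n = 19605). The grey part, clusters in neither list, is 72.2% on U, 59.4% on heterochromatin and 51.0% on the arms.

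The replicate lists shared 11 pairs of clusters on U. These are 12.4% of the 89 clusters of replicate 1 and 28.9% of the 38 of replicate 2. The matching shares were 16.5% and 46.25% on heterochromatin and 27.8% and 29.2% on the arms, with 27.2% of the whole replicate 1 list and 29.4% of the whole replicate 2 list. Of the bases on U inside a cluster of either replicate, 7.41% were inside both, against 10.7% on heterochromatin and 11.2% on the arms. These shared bases were 10.3% of those of replicate 1 on U, 13.4% on heterochromatin and 22.2% on the arms. Of the replicate 2 bases they were 20.8% on U, 35.0% on heterochromatin and 18.5% on the arms. The combined list did not touch 18 replicate 1 clusters on U (20.2%, beside 5.19% of that whole list) and 1 replicate 2 cluster (2.63%, beside 1.85%). The 18 had scores from 0.59 to 2.55 in replicate 1, with a median of 0.87. In its top 10% were 14 of them (77.8%), close to the 75.3% of all 89 replicate 1 clusters on U.

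Among the 11 regions of U in both replicate lists, a single region ranked highest by percentile in all 3 lists. The combined cluster at 9169138 to 9172039 (2902 bp) scored 2.56, at the 99.7 percentile of its list. Replicate 1 had a cluster at 9169147 to 9171962 with a score of 2.34 (99.8 percentile), the longest on U in that list at 2816 bp. Replicate 2 had one at 9169828 to 9171274 (1447 bp) with a score of 2.64 (99.9 percentile), which lay wholly inside the replicate 1 cluster.

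The other regions in both lists varied widely in rank. The one at 7542102 to 7545886 scored 1.27 in the combined list and 1.72 in replicate 2 (98.2 percentile), but 0.66 in replicate 1 (59.1 percentile). The cluster at 6731470 to 6734236 scored 1.15, with 1.36 in replicate 1 (99.3 percentile) and 1.31 in replicate 2 (94.3 percentile). The longest cluster of U, at 3478222, had 1.04 in replicate 1 (98.2 percentile) and 1.23 in replicate 2 (93.0 percentile), and its 1928 bp replicate 1 cluster lay within the 5676 bp of replicate 2. These 3 regions ranked high in at least 1 replicate, and the last 2 in both.

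Next by combined score came 2684490 to 2687101 (0.80), with 1.42 in replicate 1 and 0.94 in replicate 2. The region 7088939 to 7091050 (0.80) had 0.88 in replicate 1 and 1.18 in replicate 2. At 1396266 to 1399611 (0.65) the scores were 1.00 in replicate 1 and 0.66 in replicate 2, and at 2461531 to 2464303 (0.62) they were 0.79 and 0.78 in replicates 1 and 2. In all, 8 of the 11 regions (72.7%) were in the top 10% of the combined list, 6 (54.5%) in that of replicate 1 and 5 (45.5%) in that of replicate 2. Among all clusters on U these shares were 76.1%, 75.3% and 50%, so the 11 did not exceed them. Only 4 of the 11 were in the top 10% of all 3 lists.

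The 3 lowest of the 11 by combined score were low in both replicate lists. They were 3553983 to 3556385 (0.55), 6111775 to 6114140 (0.43) and 6109056 to 6111476 (0.33). In the combined list they stood at the 85.7, 48.1 and 9.31 percentiles. In replicate 1 they stood at the 33.3, 6.76 and 8.14 percentiles, and in replicate 2 at the 23.8, 16.0 and 0.933 percentiles. The last 2 lie next to each other on U, and both replicates called each of them as a separate cluster. The score of 0.33 belongs to a region of 2421 bp, of which 1647 bp were covered by both replicates.

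**Figure D5:**
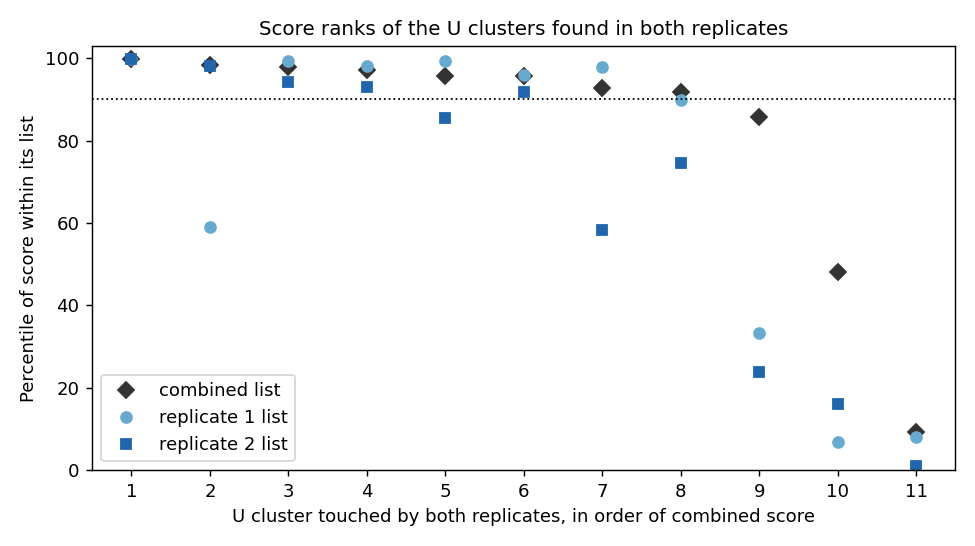
Percentile of the score within its own list (vertical axis) for the 11 clusters of U touched by both replicates, in order of combined score (horizontal axis), with the 90th percentile dotted. The first region is above 99 in all 3 lists, and the last 3 are below 34 in both replicates.

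The strongest clusters of each replicate on U were, with 1 exception, its own. In replicate 1 they lay at 5704957 to 5706923 (1967 bp) and 7820938 to 7822352 (1415 bp), both with a score of 4.01, followed by 5236040 to 5237433 (3.55), 7498751 to 7500527 (3.25) and 3741659 to 3743227 (2.87). Replicate 2 touched none of these 5. The combined list held a cluster at each, with scores of 2.72, 2.40, 4.21, 1.79 and 1.40 in the same order. In replicate 2 the leading clusters were 864650 to 866206 (3.59), the shared region at 9169828 (2.64), 9710594 to 9712694 (2.44), 6786829 to 6788820 (1.99) and 2149816 to 2151515 (1.93). Replicate 1 touched the second of them only. Their combined scores were 3.57, 2.56, 1.82, 1.33 and 1.19, and the percentiles of all 10 combined clusters ran from 98.2 to 100.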

How the data were processed

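POF ChIP-seq was analysed from 3 lists of enriched clusters that the authors deposited, 1 for each ChIP library and 1 for the replicate set. Per the submitters' processing notes, Bowtie (version 0.12.7) aligned the reads, and coordinates are of FlyBase release 5, per the file headers. Not given in the sources used here are the caller, its threshold, the input used, the handling of reads that match several places, and how the replicate set was combined. The deposited score of each cluster was taken as log2 from its values. No read counts are given, so the depth is unknown.

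Covered share is the percentage of a sequence's bases, unresolved ones included, inside clusters. Overlap required 1 bp. Percentiles are ranks within a list. Replicates were compared by exact two-sided sign-flip tests. Named regions are the highest scores, the longest, those in both replicates, the first and the last. Members, lists and rules were chosen with earlier results of these data known. Alternatives were each replicate list alone, score and length filters, merging, other overlap rules and window sizes. Scripts used Python 3.11.15 (scipy 1.17.1, pandas 2.3.3, matplotlib 3.10.9, numpy 2.4.6), and interval functions were checked on simulated lists.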

Additional observations from a re-analysis of the deposited data

How the results depend on the processing

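Of 72 alternative values of 11 results, 38 stayed within the spread between replicates or the counting interval and 34 moved; no ratio to heterochromatin or the arms rose above 1. The lists of single replicates gave a covered share of U of 0.733% to 1.47%, a ratio to heterochromatin of 0.330 to 0.430, a ratio to the arms of 0.0684 to 0.164, 3.78 to 8.86 clusters per Mb, a median length of 1542 to 1807.5 bp, a median score of 0.95 to 1.08 and 50% to 75.3% in the top 10%. Replicate 2 alone gave the lower ratio to the arms and the 50%. With clusters of at least 2000 bp only, U was covered to 1.13%, the ratios were 0.256 and 0.0767, the density 4.38 per Mb, the median length 2399.5 bp and the median score 0.69. Of these clusters on U, 43.2% were in the top 10% of the filtered list, against 19.7% on heterochromatin and 9.49% on the arms. Both replicates touched 25% of them, and replicate 1 touched 9.09% of such replicate 2 clusters. These touched shares are given for U only. Clusters at or above the median score gave a ratio to the arms of 0.289. Further settings were chosen after seeing the data. Without clusters of up to 1100 bp, coverage was 4.07%, density 23.9 per Mb, median length 1575 bp and median score 0.77. Without scores at whole-number ratios, coverage was 4.43%, density 28.6 per Mb and median score 0.80. With clusters touched by a replicate only, coverage was 1.93%, the ratios 0.320 and 0.0989, density 9.85 per Mb, median length 1867 bp and median score 0.69. In the top 10% of that filtered list were 53.5% on U, 29.3% on heterochromatin and 9.06% on the arms. The cause of these shifts was not tested, beyond the removal of clusters that each filter makes. No paired analysis was possible because the ChIP and input libraries, which share replicate numbers, were not compared, only ChIP lists being used here. The sign-flip tests set U against other sequences within each ChIP replicate.

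With 2 replicates the exact sign-flip test used here cannot give a p below 0.5. Unresolved bases of U, reads that match several places, and the number of reads behind each score were not analysed here, and the part they have in the low coverage and the high scores of U was not tested.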
